A study of Mus musculus with 9 samples.

Results

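The 8 genes described here carry the nitric oxide and cyclic GMP (cGMP) signal: the nitric oxide synthases Nos1, Nos2 and Nos3, the soluble guanylyl cyclase subunits Gucy1a1, Gucy1a2 and Gucy1b1, the cGMP-dependent protein kinase Prkg1 and the phosphodiesterase Pde5a. They were taken by name from the 35024 rows of the deposited table, and all 8 were found and passed the filter on low values. Nos1 was selected on its own values in these libraries, because they were low where Yap1 was low. They are therefore given as a description, with no test. The other 7 genes were chosen as members of the pathway.

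Nitric oxide is made from arginine by the synthases, named neuronal (Nos1), inducible (Nos2) and endothelial (Nos3). It diffuses into neighbouring cells and binds the haem of soluble guanylyl cyclase, a heterodimer of an alpha and a beta subunit that makes cGMP. The kinase then phosphorylates proteins that relax contractile cells, and phosphodiesterases end the signal by hydrolysing cGMP. In the liver, nitric oxide from sinusoidal endothelial cells is known to act on hepatic stellate cells, the retinoid-storing pericytes of the sinusoid.

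The study compared hepatic stellate cells that lack the transcriptional coactivator YAP with cells that keep it, in mice given 6 injections of the hepatotoxin carbon tetrachloride 3 days apart. The YAP-deleted group (4 libraries: LYT006, LYT008, LYT013 and LYT016) came from LratCre+ mice with floxed Yap1 alleles. The control group (5 libraries: LYT004, LYT005, LYT014, LYT015 and LYT017) came from mice with floxed Yap1 alleles and no Cre named in their labels. Both groups had a C57BL/6J background, and no animal ages are in the labels. Cells were sorted on retinoid autofluorescence 2 days after the last injection. The Lrat promoter is active in stellate cells, and since the labels give the Cre to every YAP-deleted library and name none for the controls, an effect of Cre and an effect of Yap1 loss cannot be told apart. Whether each library came from its own mouse is not in the labels. The p-values therefore reflect library-to-library spread, which may be technical in part.

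Each library held 14052502 to 31816055 counts, recovered from the deposited values. All 12 stellate cell markers were present in every library, with summed levels of 775265 to 987219 normalised counts (counts divided by the size factor of the library) in YAP-deleted libraries and 756342 to 935511 in control libraries. Yap1 had 642, 648, 2529.8 and 645 normalised counts in LYT006, LYT008, LYT013 and LYT016, labelled YAP-deleted, against 2902, 2915, 618, 3653 and 3551 in LYT004, LYT005, LYT014, LYT015 and LYT017, labelled control. The library labelled YAP-deleted LYT013 and the library labelled control LYT014 thus went against their labels. No measurement here gives the Cre status of any library directly. Rbm46, a gene 16.1 kb from Lrat, had 1907, 1999, 222 and 2610.5 normalised counts in the YAP-deleted libraries, in the same order. It had 649, 868, 2819, 619 and 661 in the control libraries. Whether the Rbm46 level reflects the Cre was not tested. Every comparison is given with all 9 libraries as labelled and with the 7 libraries that leave out LYT013 and LYT014. No library was given another group. Cycling cells also differed between libraries: the summed level of 12 cycling markers was 17695, 19054, 26148 and 5575 normalised counts in LYT008, LYT004, LYT005 and LYT014, and 685 to 1029 in the other 5.

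Nos1 had the highest median level of the 3 synthases. It lies on chromosome 5, 117781032 to 117958840 on GRCm38, plus strand. The 250 bases before its RefSeq start site (GRCm38.p6, plus strand, chr5:117866589-117866838) are shown because Nos1 is the member whose level differed most in the 7 libraries. This start site lies inside the longer span that GENCODE gives the gene, which begins at 117781032. The bases before that outer start were not searched. The stretch ends in bases rich in c and t followed by ag, as an intron before an exon does. Whether it is intron in the transcripts of these cells, and which start site they use, was not tested. The word promoter below therefore means only the bases before the RefSeq start site.

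Nos1 promoter: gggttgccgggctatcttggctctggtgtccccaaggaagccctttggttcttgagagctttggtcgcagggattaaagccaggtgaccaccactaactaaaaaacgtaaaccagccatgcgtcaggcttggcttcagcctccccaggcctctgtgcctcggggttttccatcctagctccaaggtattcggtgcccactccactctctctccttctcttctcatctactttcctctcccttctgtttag

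Capitals were reserved for matches to the TEAD core (GGAATG, or CATTCC on the other strand) and to the CArG box, the motifs of the DNA-binding partners of YAP and of serum response factor, each searched on both strands. Neither was present in these 250 bases. Of 32851 promoters in the RefSeq table, 12.6% held the TEAD core and 1.47% the CArG box in the same window. The same search in the 7 other promoter windows listed for Gucy1a1, Gucy1a2, Gucy1b1, Prkg1 and Pde5a found 0 matches to either. Some of these windows overlap annotated exons, by 211 of the 250 bases for Pde5a and by 118 and 61 for Gucy1a1. No promoter window for Nos2 or Nos3 was used here.

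Nos1 was low in the 3 YAP-deleted libraries with low Yap1. LYT006, LYT008, LYT013 and LYT016, labelled YAP-deleted, had 32.3, 42.1, 93.3 and 40.9 normalised counts of Nos1, against 162, 159, 78.6, 204 and 195 in LYT004, LYT005, LYT014, LYT015 and LYT017, labelled control. These rest on 28, 33, 156 and 49 recovered counts in the YAP-deleted libraries and on 152, 130, 98, 217 and 145 in the control libraries. LYT013 was the highest library of the YAP-deleted group and LYT014 the lowest of the control group, and the labelled groups overlapped by these libraries alone. In the 7 libraries the level was 38.4 ± 5.35 normalised counts in YAP-deleted libraries (SD, n = 3) and 180 ± 22.9 in control libraries (SD, n = 4), a ratio of means of 0.213. The difference on the deposited log2-like scale was −1.06 ± 0.23 in 9 libraries and −1.41 ± 0.12 in 7 libraries (SE). That scale understates changes at low counts: on log2 of the normalised count plus 1 the differences were −1.65 and −2.20.

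The libraries that went against their Yap1 label lay between the groups for Nos1. LYT014, with Yap1 at the YAP-deleted level, had more Nos1 than any of the 3 YAP-deleted libraries with low Yap1. LYT013, with Yap1 near the control level, had less Nos1 than any of the 4 control libraries with high Yap1. The plot of Nos1 against Yap1 shows these libraries apart from the other 7. Within library codes 4 to 8 the Nos1 difference was −1.31. Within codes 13 to 17 it was −0.82 with all libraries, and −1.48 without LYT013 and LYT014 (1 YAP-deleted library against 2 control libraries). Since these are bulk samples, fewer cells that express a gene and less RNA per cell cannot be told apart, here or below.

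**Figure D1:**
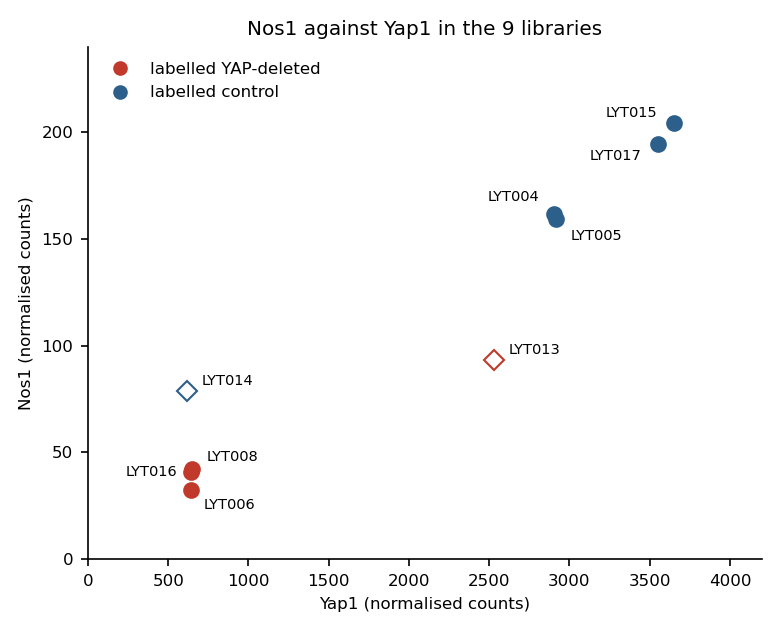
Nos1 against Yap1 in normalised counts, 1 point per library (red, labelled YAP-deleted; blue, labelled control; open diamonds, LYT013 and LYT014). The 3 filled YAP-deleted points lie at 32.3 to 42.1 counts of Nos1 and the 4 filled control points at 159 to 204, with the diamonds at 93.3 and 78.6 between them.

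Markers of neurons and Schwann cells, other cells known to express Nos1, were at or near 0. Of 12 such markers S100b and Th were at 0 in every library, and Sox10 reached at most 0.942 and Syt1 at most 1.15 normalised counts. The summed list ranged from 30.5 to 70.2 in YAP-deleted libraries and from 36.3 to 142 in control libraries. In LYT015 and LYT017, the control libraries with the highest Nos1, the sum was 46.2 and 36.3. An antisense gene, Gm26995, shares 268 exon bases with Nos1 on the opposite strand and has no row in the table. No source used here gives whether the counting used strand.

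Nos2, the inducible synthase, was barely detected. It is on chromosome 11 at 78920787 to 78960254 (plus strand). LYT006, LYT008, LYT013 and LYT016, labelled YAP-deleted, had 1, 0, 0 and 6 recovered counts, against 0, 0, 13, 2 and 0 in LYT004, LYT005, LYT014, LYT015 and LYT017, labelled control. All 9 libraries together held 22 counts of 174900194, with an exact Poisson 95% interval of 13.8 to 33.3 that covers counting error only. LYT014 held most of them. The macrophage markers, which mark cells known to induce Nos2, summed to 1051 to 2600.5 normalised counts in YAP-deleted libraries and 716 to 1929 in control libraries, and to 1589 in LYT014. Their part in the Nos2 counts was not tested. The Nos2 difference was −0.02 ± 0.19 in 9 libraries and 0.20 ± 0.16 in 7 (SE), with limma adjusted p-values of 0.976 and 0.908.

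Nos3, the endothelial synthase, was also near the detection limit. It is on chromosome 5 at 24364810 to 24384474 (plus strand). The libraries LYT006, LYT008, LYT013 and LYT016, labelled YAP-deleted, had 4, 0, 17 and 11 counts, against 2, 0, 27, 5 and 11 in LYT004, LYT005, LYT014, LYT015 and LYT017, labelled control. The total was 77 counts, with an exact Poisson 95% interval of 60.8 to 96.2. LYT014 was again the highest library. Of 12 endothelial markers, 7 were also highest in LYT014, among them Cdh5, Kdr and Erg at 198, 482 and 20.9 normalised counts. The other 5 were highest in other libraries: Pecam1 in LYT006, Tek and Tie1 in LYT008, Clec4g in LYT013 and Gpr182 in LYT016. In LYT005, where Nos3 was at 0, Cdh5, Kdr and Erg were at 2.45, 6.13 and 0, while Tie1 was at 278, against 201 in LYT014. The list summed to 2741 to 4632 normalised counts in YAP-deleted libraries and 1668 to 4999.5 in control libraries. Their part in the Nos3 level was not tested. The Nos3 difference was −0.08 ± 0.24 in 9 libraries and −0.04 ± 0.25 in 7 (SE), with limma adjusted p-values of 0.921 and 0.984. Nos3 shares 294 exon bases with Atg9b and 1040 with Gm15587, both on the opposite strand, so its few counts are uncertain.

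The guanylyl cyclase subunits Gucy1a1 and Gucy1b1 were the most abundant members. Gucy1a1, the alpha-1 subunit, had 14972, 14994, 10602 and 13529 normalised counts in LYT006, LYT008, LYT013 and LYT016, labelled YAP-deleted. It had 17375, 15022, 14443, 14374 and 14100.4 in LYT004, LYT005, LYT014, LYT015 and LYT017, labelled control. The groups overlapped, and LYT013 was the lowest of the 9. Gucy1b1, the beta-1 subunit that carries the haem, had 9975, 8539, 7716 and 10905 normalised counts in the YAP-deleted libraries and 8094, 7922, 9393, 11539 and 11552 in the control libraries, in the same order. These groups overlapped throughout.

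The difference of Gucy1a1 was −0.16 ± 0.14 in 9 libraries and −0.07 ± 0.12 in 7 libraries (SE), with 95% intervals of −0.48 to 0.15 and −0.34 to 0.21. Gucy1b1 differed by −0.06 ± 0.16 and 0.02 ± 0.17, with intervals of −0.42 to 0.30 and −0.38 to 0.42. The limma adjusted p-values were 0.71 and 0.957 for Gucy1a1 and 0.917 and 0.986 for Gucy1b1. The genes are neighbours on chromosome 3, minus strand, with 17.7 kb between them: Gucy1b1 at 82032006 to 82074689 and Gucy1a1 at 82092427 to 82145789. The gap to Lrat, the source of the Cre promoter, is 817.9 kb for Gucy1b1 and 746.8 kb for Gucy1a1. Their level relative to each other varied with the library: Gucy1a1 per kilobase of exon was 0.699 to 0.990 times Gucy1b1 in YAP-deleted libraries and 0.688 to 1.21 times in control libraries.

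Gucy1a2, the alpha-2 subunit, was far less abundant than Gucy1a1 and varied more. It had 436, 357, 188 and 939 normalised counts in LYT006, LYT008, LYT013 and LYT016, labelled YAP-deleted, against 715, 679.5, 847, 1096 and 1502 in LYT004, LYT005, LYT014, LYT015 and LYT017, labelled control. LYT016 lay among the control libraries and the other 3 YAP-deleted libraries below all of them. The mean was 480 ± 323 in YAP-deleted libraries (SD, n = 4) and 968 ± 340 in control libraries (SD, n = 5). The difference was −1.06 ± 0.35 in 9 libraries and −0.77 ± 0.34 in 7 libraries (SE), with limma adjusted p-values of 0.649 and 0.783. Gucy1a2 is on chromosome 9 at 3532778 to 3894736 (plus strand), 4.04 Mb from Yap1. The beta subunit Gucy1b2 had 0 counts in every library, which allows up to 3 counts of the 174900194 (a one-sided limit for counting error only, unlike the two-sided intervals above).

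Prkg1, the kinase that cGMP activates, followed the order of Gucy1a2. It had 1070.2, 901, 309 and 1611 normalised counts in LYT006, LYT008, LYT013 and LYT016, labelled YAP-deleted, against 1355, 1187, 1534, 1769.7 and 2032 in LYT004, LYT005, LYT014, LYT015 and LYT017, labelled control. LYT016 again lay among the controls, and LYT013 was the lowest by a wide margin. The difference was −0.83 ± 0.35 in 9 libraries, −0.40 ± 0.20 without LYT013 and −0.40 ± 0.23 in 7 libraries (SE). The limma adjusted p-values were 0.649 in 9 and 0.81 in 7 libraries. Prkg1 spans chromosome 19 from 30564489 to 31765033 (minus strand), the longest member at 1200.5 kb.

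Pde5a, the phosphodiesterase that hydrolyses cGMP and is the target of sildenafil, differed by little but with a small spread. It had 1239.7, 1397, 1118 and 1471 normalised counts in LYT006, LYT008, LYT013 and LYT016, labelled YAP-deleted. It had 1737, 1558, 1453, 1703 and 1996 in LYT004, LYT005, LYT014, LYT015 and LYT017, labelled control. LYT016 lay just above LYT014, and the groups did not otherwise overlap. In the 7 libraries the mean was 1369 ± 118 in YAP-deleted libraries (SD, n = 3) and 1748 ± 182 in control libraries (SD, n = 4), with no overlap. Groups ordered in this direction without overlap made up 3.46% of the 17296 genes tested. The difference was −0.36 ± 0.12 in 9 libraries and −0.34 ± 0.10 in 7 (SE), with limma adjusted p-values of 0.649 and 0.613 and 95% intervals of −0.62 to −0.09 and −0.57 to −0.10. Pde5a is on chromosome 3 at 122728947 to 122859374 (plus strand).

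**Figure D2:**
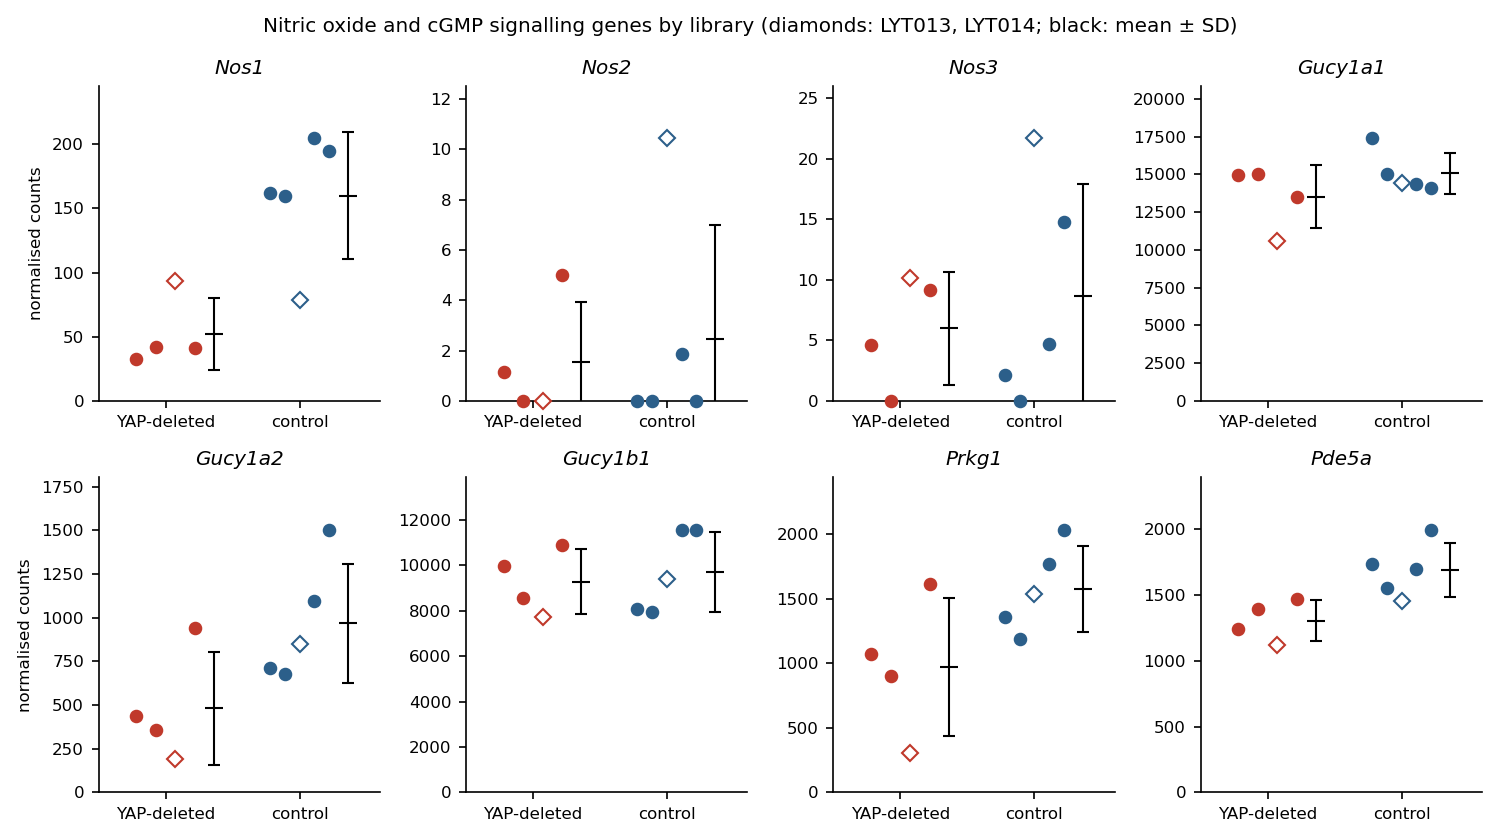
Normalised counts of the 8 genes in each library (red, labelled YAP-deleted; blue, labelled control; open diamonds, LYT013 and LYT014; black, mean ± SD of the labelled group, cut at 0). Nos1 separates the filled points by group, Gucy1a1 and Gucy1b1 overlap, and LYT013 is the lowest library for Gucy1a2 at 188 and Prkg1 at 309.

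None of the 7 genes other than Nos1 passed the threshold of adjusted p under 0.05 in either comparison. In the 9 libraries limma called 0 of 17203 genes (0%), with 1242 at an unadjusted p under 0.05, and 0 were called by limma voom run on recovered counts, with 1319. In the 7 libraries limma called 12 of 17296 genes (0.0694%), 3 of them higher (0.0173%) and 9 lower (0.052%) in YAP-deleted libraries. The 7 genes had a median difference of −0.16 in 9 libraries, with all 7 negative, and of −0.07 in 7 libraries, with 5 negative, beside medians of −0.005 and −0.007 over all genes tested. With the library code range (4 to 8 against 13 to 17) as a term, the 7-library differences of Gucy1a2, Prkg1 and Pde5a were −0.61 ± 0.13, −0.30 ± 0.09 and −0.31 ± 0.09 (SE), with limma adjusted p-values of 0.161, 0.317 and 0.268. Within codes 4 to 8 they were −0.74, −0.35 and −0.31. Within codes 13 to 17, where 1 YAP-deleted library remained, they were −0.43, −0.23 and −0.31.

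**Figure D3:**
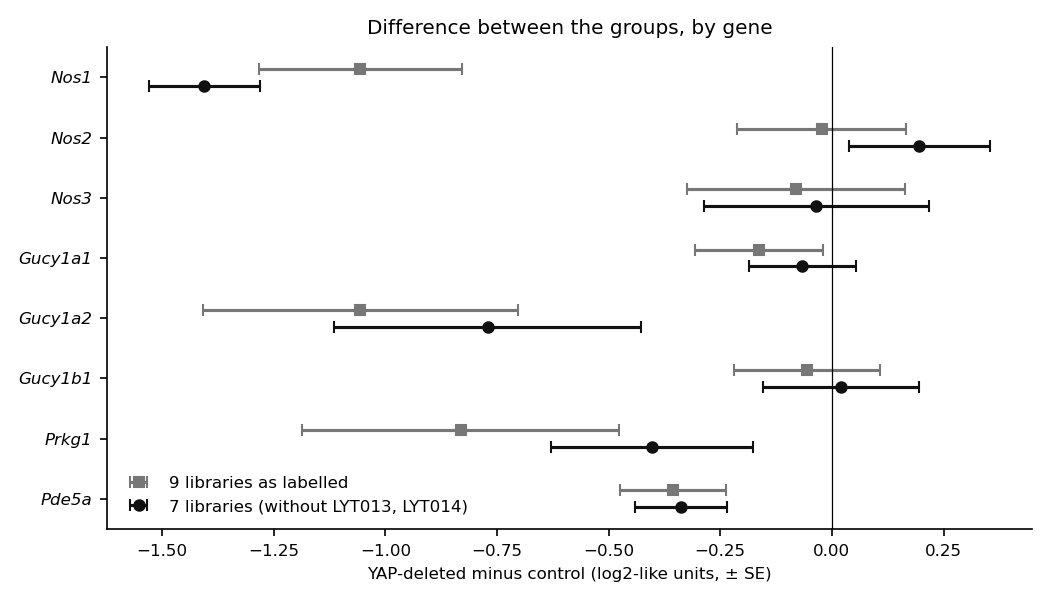
Difference between YAP-deleted and control libraries on the deposited log2-like scale for each gene, with SE (grey squares, 9 libraries as labelled; black circles, 7 libraries without LYT013 and LYT014). Nos1 lies at −1.06 and −1.41, Gucy1a2 at −1.06 and −0.77 with wide errors, and Gucy1a1 and Gucy1b1 near 0.

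The low Gucy1a2 and Prkg1 values of LYT013 went along with the genomic span of the genes. Among protein-coding genes at or above the median level, those that span under 10 kb were a median 0.52 log2-like units higher in LYT013 than in the mean of the other 8 libraries. Those over 300 kb were 0.56 units lower (a difference of −0.56). The corresponding medians of the library labelled control LYT014 were −0.12 and 0.13, and those of the YAP-deleted library LYT016 were −0.05 and 0.16. Gucy1a2 spans 362.0 kb and deviated by −1.73 in LYT013, and Prkg1 deviated by −1.98, both farther than the median of their span class. Pde5a (130.4 kb) deviated by −0.45 and Nos1 (177.8 kb) by −0.04, where the class of 100 to 300 kb had a median of −0.51. The part of this pattern in the 9-library differences was not tested beyond leaving LYT013 out.

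**Figure D4:**
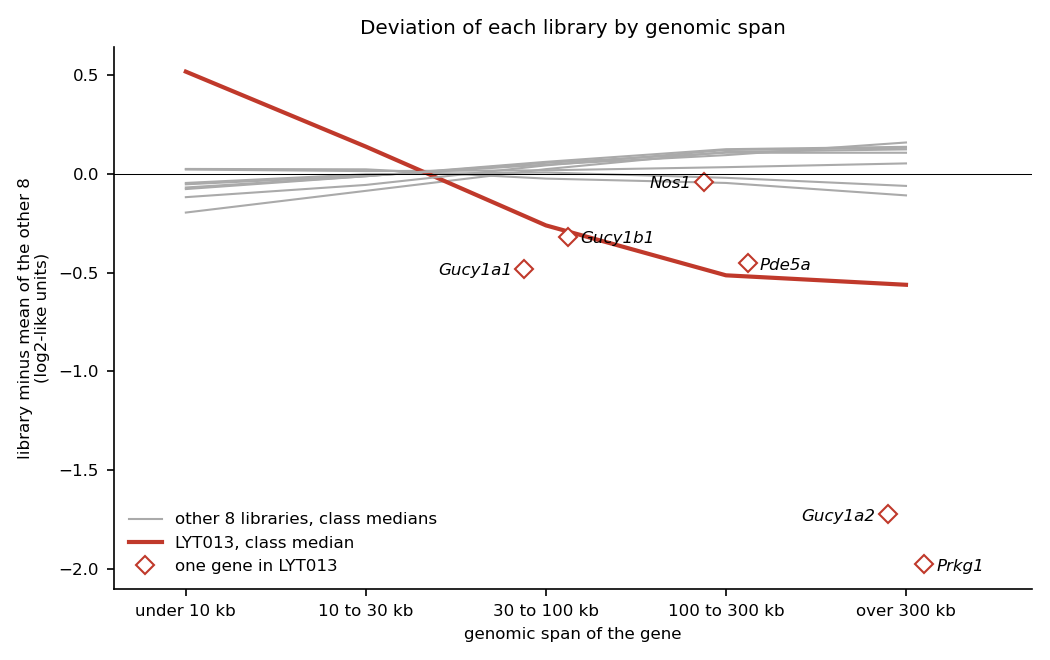
Deviation of each library from the mean of the other 8, in log2-like units, as the median over protein-coding genes of each class of genomic span (red, LYT013; grey, the other 8 libraries), with 6 genes in LYT013 as diamonds. LYT013 falls from 0.52 for the shortest to −0.56 for the longest class, and Gucy1a2 and Prkg1 lie below it at −1.73 and −1.98.

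Per kilobase of exon, Gucy1a1 and Gucy1b1 stood far above Gucy1a2, Prkg1 and Pde5a, and all 5 above Nos1. The median over the 9 libraries was 2392 normalised counts per kilobase for Gucy1b1 (range 1965 to 2942) and 2073 for Gucy1a1 (1522 to 2494), whose ranges overlapped. Pde5a at 149.6, Prkg1 at 125 and Gucy1a2 at 107 formed a second level, with overlapping ranges of 114 to 203, 28.4 to 187 and 28.3 to 226. Nos1 had a median of 8.37 and a range of 2.90 to 18.3, below every value of these 5 genes. Nos3 had a median of 1.14 and reached 5.24, which overlaps the lower values of Nos1, and Nos2 had a median of 0 and reached 2.36. The table does not give isoforms. With the longest coding transcript as length, Gucy1a1 (3067) stood above Gucy1b1 (2914), and Gucy1a2 (319) above Prkg1 (194) and Pde5a (193).

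**Figure D5:**
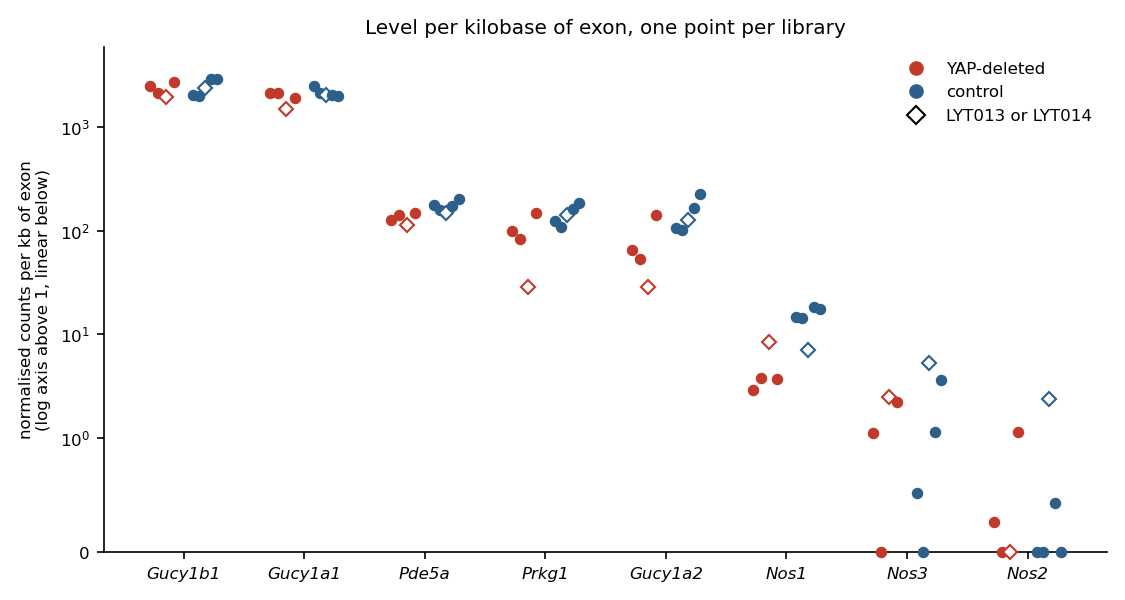
Normalised counts per kilobase of exon for the 8 genes, 1 point per library, on an axis that is logarithmic above 1 and linear below (red, YAP-deleted; blue, control; open diamonds, LYT013 and LYT014). Gucy1b1 and Gucy1a1 lie near 2392 and 2073, Pde5a, Prkg1 and Gucy1a2 between 28.3 and 226, Nos1 between 2.90 and 18.3, and Nos3 and Nos2 at 5.24 or less.

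The members did not vary together as 1 block. Over the 9 libraries Gucy1a2 and Prkg1 had a Pearson correlation of 0.949 on the deposited scale, and 0.987 over the 7 libraries. Pde5a correlated with Gucy1a2 at 0.877 and with Prkg1 at 0.815 over 9 libraries. Gucy1a1 and Gucy1b1, the subunits of the main heterodimer, had 0.056 over 9 libraries and −0.73 over 7. Nos1 correlated with Pde5a at 0.699 over 9 libraries and 0.873 over 7. These values are descriptions over libraries that share groups, code ranges and depth.

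The genes whose pattern over the 9 libraries was most like that of Nos1 were Tnc, Ptprf, Cacna1a, Yap1 and Cacna1c, with Pearson correlations of 0.939, 0.935, 0.929, 0.927 and 0.920 among 8602 genes at or above the median level. Tnc encodes a matrix glycoprotein, Ptprf a receptor phosphatase, and Cacna1a and Cacna1c pore subunits of voltage-gated calcium channels. Over the 7 libraries the correlation of Nos1 with Yap1 was 0.997 and with Cacna1a 0.979. Nos1 was picked for being low where Yap1 was low, and the 7 libraries leave out those with Yap1 against the label. The likeness to Yap1 was therefore built into the choice and is no finding. The difference of Cacna1c in the 7 libraries was −0.97 ± 0.18 and that of Cacna1a −0.49 ± 0.09 (SE), given without a test because they were picked for their likeness to Nos1. Prkg1 was most like Sptbn1, Ccdc186 and Rab3gap1 (0.993, 0.992 and 0.990), and Gucy1a2 most like Rbm25, Nktr and Pla2r1 (0.976, 0.973 and 0.972). Pde5a was most like Fn1, Cald1 and Vcl (0.958, 0.952 and 0.947), which encode fibronectin, caldesmon and vinculin. Gucy1a1 was most like Cgnl1, Hs2st1 and Gtf2a1 (0.988, 0.987 and 0.984), and Gucy1b1 most like Tln2, Gopc and Numb (0.982, 0.982 and 0.980). For Nos3 these were Aqp1, Cdk8 and Insig2 (0.956, 0.955 and 0.935) and for Nos2 they included Tmem108 and Nt5dc3 (0.918 and 0.916), on the few counts given above.

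A further 74 genes of the pathway were listed, of which 64 passed the filter. None passed adjusted p under 0.05 in either comparison (limma, smallest 0.649 in 9 libraries and 0.654 in 7). In the 9 libraries 35 had a positive and 29 a negative difference, with a median of 0.02. In the 7 libraries 34 were positive and 30 negative, again with a median of 0.02. In the 7 libraries 5 of the 64 were higher in every YAP-deleted library than in any control library, and 0 lower, where 3.86% of all genes tested were higher in this way and 3.46% lower.

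Of the 16 genes for partners and regulators of the synthases, 11 had a positive and 5 a negative difference in 9 libraries (median 0.05), and 8 each in 7 libraries (median −0.02). Nos1ap, the adaptor protein that binds Nos1, had 16.7 ± 3.04 normalised counts in YAP-deleted libraries (SD, n = 3) and 20.1 ± 11.3 in control libraries (SD, n = 4). Ddah1, which degrades the inhibitor of synthases asymmetric dimethylarginine, had 23.9 ± 11.6 in YAP-deleted libraries and 37.9 ± 15.7 in control libraries. The scaffold Dlg4 and the chaperone Hsp90aa1 differed by 0.19 ± 0.08 and −0.18 ± 0.13 in 7 libraries (SE). In 9 libraries they differed by 0.01 ± 0.14 and −0.17 ± 0.15.

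Of the 12 genes for arginine supply and for the cofactor tetrahydrobiopterin, 6 had a positive difference in 9 libraries (median 0.03) and 9 in 7 libraries (median 0.05). Ass1 and Asl, which rebuild arginine from citrulline, differed by 0.45 ± 0.15 and 0.30 ± 0.13 in the 7 libraries (SE). Ass1 had 538 ± 54.6 normalised counts in YAP-deleted libraries (SD, n = 3) and 382 ± 79.1 in control libraries (SD, n = 4), without overlap, and a limma adjusted p of 0.654. With all 9 libraries the difference was 0.29 ± 0.18 (SE), and LYT014, labelled control, had the highest level at 656. Arg1, the arginase of hepatocytes, had 88.5 ± 27.8 in YAP-deleted libraries and 54.1 ± 10.3 in control libraries. The 10 hepatocyte markers summed to 648 to 1251 in YAP-deleted and 346 to 1079 in control libraries. The 1251 was in LYT013 and the 346 in LYT014, which the Arg1 means leave out. The sums were 648, 714 and 924 in LYT006, LYT008 and LYT016, labelled YAP-deleted. They were 576, 1079, 1068 and 1038 in LYT004, LYT005, LYT015 and LYT017, labelled control. The part of hepatocytes in the Arg1 level was not tested. Gch1, the first enzyme of cofactor synthesis, had 23.0 ± 3.06 in YAP-deleted libraries and 17.5 ± 7.15 in control libraries. Its difference was 0.17 ± 0.14 in 7 libraries and −0.04 ± 0.21 in 9 (SE).

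Of the 6 genes that remove nitric oxide or nitrosothiols, all had a positive difference in 9 libraries (median 0.13) and 5 in 7 libraries (median 0.05). Cygb, a globin of stellate cells that converts nitric oxide to nitrate, was abundant. It had 19962, 14882, 15409 and 14819 normalised counts in LYT006, LYT008, LYT013 and LYT016, labelled YAP-deleted, against 13057, 11902, 14998, 12814 and 10059 in LYT004, LYT005, LYT014, LYT015 and LYT017, labelled control. LYT014 was the highest control library, above LYT008 and LYT016. The 7-library difference was 0.46 ± 0.15 (SE), a ratio of means of 1.38, with a limma adjusted p of 0.654. Adh5, the nitrosoglutathione reductase, differed by 0.07 ± 0.09, and myoglobin Mb was at 1.23 normalised counts or less.

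The natriuretic peptide system, the other route to cGMP, was present as receptors. Of 10 genes 4 passed the filter, with medians of 0.07 in both comparisons. Npr2, the cyclase receptor for C-type natriuretic peptide, had 1972 ± 125 normalised counts in YAP-deleted libraries (SD, n = 3) and 1717 ± 105 in control libraries (SD, n = 4). Its difference was 0.19 ± 0.08 in 7 libraries (SE, limma adjusted p = 0.782), where the groups did not overlap, and 0.13 ± 0.10 in 9. Npr3, the clearance receptor, had 4897 ± 1372 in YAP-deleted libraries and 5631 ± 2521 in control libraries. The protease Furin, which processes natriuretic peptide precursors, differed by 0.07 ± 0.09. The peptide genes Nppa and Nppb had 0 counts in every library, and Nppc had 1 count in all.

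Of the 12 genes for cGMP kinases and their substrates, 11 passed the filter, with 7 negative differences in 9 libraries (median −0.12) and 9 in 7 libraries (median −0.03). Prkg2, the second cGMP-dependent kinase, was low, with 38.1, 24.2, 25.1 and 22.5 normalised counts in LYT006, LYT008, LYT013 and LYT016, labelled YAP-deleted. It had 21.3, 15.9, 15.2, 13.2 and 20.1 in LYT004, LYT005, LYT014, LYT015 and LYT017, labelled control. These groups did not overlap in all 9 libraries, as for 1.69% of the 17203 genes tested in this direction. The difference in 9 libraries was 0.26 ± 0.11 (SE, limma adjusted p = 0.649). Vasp, a classical substrate of the kinase, differed by 0.25 ± 0.16 in 9 libraries and 0.06 ± 0.13 in 7. The myosin phosphatase subunit Ppp1r12a differed by −0.10 ± 0.10 and the channel subunit Kcnmb1, also in the mural cell list, by −0.54 ± 0.27 in 7 libraries. The mural cell markers summed to 108702 to 139746 normalised counts in YAP-deleted libraries and 90567 to 126386 in control libraries, most of it from Rgs5. Of the 12 markers 10 were above 0 in every library, among them Myh11 at 1987 to 3860 and Tagln at 2978 to 20124. The others, Cnn1 and Myocd, were at 12.8 and 4.91 or less. The part of mural cells in these levels was not tested.

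Among the 10 other phosphodiesterases of the list, 4 had a positive difference in 9 libraries (median −0.08) and 5 in 7 libraries (median 0.02). Pde3a, which cGMP inhibits, was abundant, with 6756 ± 1080 normalised counts in YAP-deleted libraries (SD, n = 3) and 7435 ± 1018 in control libraries (SD, n = 4). Pde2a, which cGMP stimulates, had 31.0 ± 31.1 in YAP-deleted libraries and 62.5 ± 25.1 in control libraries, and a difference of −0.78 ± 0.41 (SE). It was at 0 in LYT016, and at 62.3 and 30.6 in LYT006 and LYT008. The control libraries LYT004, LYT005, LYT015 and LYT017 had 73.5, 44.2, 39.6 and 92.7. Pde10a differed by 0.17 ± 0.13 in 7 libraries and by −0.09 ± 0.19 in 9. Pde11a had 2.92 ± 2.01 in YAP-deleted libraries and 1.08 ± 1.27 in control libraries. Of the 8 channel and exporter genes 5 passed the filter, with medians of −0.07 in 9 and −0.02 in 7 libraries. The exporter Abcc4 had 73.5 ± 7.47 in YAP-deleted libraries and 60.4 ± 8.12 in control libraries. Its difference was 0.17 ± 0.12 in 7 libraries and −0.07 ± 0.17 in 9 (SE). The cGMP-gated channel genes Cnga2 and Cnga3 were at 9.81 normalised counts or less in every library.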

How the data were processed

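Gene values came as 1 deposited table of variance-stabilised, log2-like values per gene name and library. No source used here says how the authors made it from reads. The submitters' processing notes name bcl2fastq 2.20, kallisto 0.44.0, sleuth and the builds GRCm38, mm10 and GRCh38, with no role or order. The labels' protocols describe a poly-A and a ribosomal depletion preparation without saying which library had which. Group and library came from the sample titles, and the column for LYT013 was headed LYT013.1.

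An inverse hyperbolic sine of size-scaled counts fitted the deposited values. Inverting it gave whole counts within 0.1 for 100% of values above the lowest one (4.96). Normalised counts are these counts over the size factor. Because the deposited unit is log2-like, the main test was limma 3.58.1 (R 4.3.3) on the deposited values, with group as the term and a mean-variance trend. P-values are two-sided and Benjamini-Hochberg adjusted over the genes above 4.96 in 4 or more of 9, or 3 or more of 7, libraries. The fit was checked on simulated counts with known changes.

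The members, the lists, the omission of LYT013 and LYT014 and the alternatives were chosen with earlier results of these data known. Named genes were the 8 members, Yap1, 11 fixed genes, the 3 genes with the smallest p in 7 libraries of each list, and the genes most like each member. Some of these are not reported here. Irag1 was matched under its symbol Mrvi1. Positions, spans and exon lengths came from GENCODE M21 on GRCm38, and the promoter windows from RefSeq (GRCm38.p6).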

Additional observations from a re-analysis of the deposited data

Results flagged for a closer look

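A library far from the others of its labelled group was found for 5 of 70 gene and group pairs, where chance gives about 1 in 20. The Yap1 and Nos1 values among them had already served to set LYT013 and LYT014 apart and to pick Nos1. The count of 5 therefore cannot be read against that rate. Yap1 in LYT013 was the highest of the 4 YAP-deleted libraries, at 2529.8 normalised counts with the next at 648. Yap1 in LYT014 was the lowest of the 5 control libraries, at 618 with the next at 2902. Nos1 in LYT014 was likewise the lowest of the control libraries, at 78.6 with the next at 159. Cygb and Ass1 were both highest in LYT006 among the YAP-deleted libraries, at 19962 with the next at 15409 and at 601 with the next at 509.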

How the results depend on the processing

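With 9 libraries, limma called 0 genes under all 21 alternatives. With 7 libraries it called 12, and 8 to 12 under the 10 alternatives of filter, scale, scaling, moderation, weights and voom. It called 25 (7 higher, 18 lower) with the library code range as a term and 37 (12 higher, 25 lower) with the cycling marker mean as a term. Leaving out 1 library gave 2 to 11: 2 without LYT006, 7 without LYT008, 3 without LYT016, 6 without LYT004 and 5 without LYT017. Gucy1a1, Gucy1a2, Prkg1 and Pde5a kept a negative difference and passed the threshold under none of 21 and 19 alternatives. On leaving out 1 library, the 9-library difference of Prkg1 ran from −1.13 to −0.40 and that of Gucy1a2 from −1.41 to −0.74. Within codes 4 to 8 and 13 to 17 Prkg1 was at −0.35 and −1.22, and Gucy1a2 at −0.74 and −1.25. Prkg1 was at −0.40 without LYT013, and Gucy1a2 at −0.77 in 7 libraries. Differences near 0 changed sign. In 9 libraries Nos2 was 0.0056 with the code range as a term and −0.143 to 0.0484 on leaving out 1 library, Nos3 −0.235 to 0.0973 and Gucy1b1 −0.138 to 0.0276. Gucy1b1 was 0.20 within codes 4 to 8 and −0.23 within codes 13 to 17. In 7 libraries Gucy1b1 was −0.0156 with quantile normalisation, −0.0662 with library weights and −0.0569 with the cycling mean, and −0.0716 to 0.116 on leaving out 1 library. Nos3 was 0.0290 with voom, 0.0558 with the code range and −0.202 to 0.186 on leaving out 1 library. The cause of these changes was not tested. No paired analysis was possible because the groups share no replicate numbers. Nos2 and Nos3 rest on 22 and 77 counts, which limits what their differences can show.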

Other observations

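The ratio of Nos1 to Yap1 normalised counts was 0.0503, 0.0650 and 0.0634 in LYT006, LYT008 and LYT016, labelled YAP-deleted, and 0.0558, 0.0547, 0.0560 and 0.0548 in LYT004, LYT005, LYT015 and LYT017, labelled control. LYT013 and LYT014 lay outside this range on opposite sides, at 0.0369 and 0.127. Because Nos1 was picked for being low where Yap1 was low, these ratios are a description only.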
